A study of Mus musculus with 6 samples.

Results

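The 10 genes described here are Srf and 9 genes that are known targets of the serum-responsive transcription factors SRF and YAP, namely Acta2, Tagln, Cnn1, Myl9, Vcl, Ctgf, Cyr61, Ankrd1 and Thbs1. They were chosen by name, and all 10 were found among the 19613 genes measured. The samples were 6 preparations of embryoid bodies, aggregates of differentiated embryonic stem cells that contain spinal motor neurons, each measured on an Affymetrix mouse exon array. The stem cells carried green fluorescent protein under control of Hb9 (Mnx1), a gene of motor neurons. Every sample was exposed to blood fluid from B6CBA-Tg(HDexon1)62Gpb/3J mice, which carry a piece of the human gene mutated in Huntington's disease. This fluid is named plasma in the labels and serum in the methods of the study, and is called serum below. According to the methods the donor mice were male and had not yet developed symptoms. The labels form a single group and number its arrays as replicates 2, 4, 5, 6, 7 and 8, and do not tie an array to a donor mouse. In the study these were 6 samples of serum from the model, so the spread between arrays holds any difference between sera together with that of cultures and arrays. No culture without this serum was analysed here. The values therefore give the level of each gene under serum and its spread, and not a response to serum.

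SRF is a transcription factor that binds a short DNA element, the CArG box, in the promoters of genes for actin, actin-binding and contractile proteins. Its cofactors MRTF-A and MRTF-B are held in the cytoplasm by monomeric actin, and serum, through the small GTPase RhoA, promotes actin assembly and releases them to the nucleus. YAP and its relative TAZ are coactivators that the Hippo kinases keep out of the nucleus, and serum lipids acting through RhoA relieve this restraint so that YAP can join TEAD factors on DNA. Several genes, among them Ctgf and Cyr61, are regarded as targets that both pathways can reach. In embryoid bodies these genes can be used by neural cells as well as by any muscle or connective tissue cells that are present.

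The promoters are shown because the 10 genes were grouped by the factors that are known to act on them. A promoter was taken as the 250 bases before the annotated start, and 7 of the 10 genes matched the RefSeq promoter table (build GRCm38.p6). Tagln, Ctgf and Thbs1 were not among them. Capitals mark matches to the CArG box, to the same element with 1 C or G within its A/T run, and to the TEAD motif GGAATG or its reverse complement CATTCC, with both strands searched. The CArG box reads the same way on either strand, and no match to it overlapped a TEAD motif in the sequences below. The Srf promoter covers chr17:46556163-46556412 on the minus strand, that of Myl9 chr2:156775214-156775463 on the plus strand, and that of Vcl chr14:20929148-20929397 on the plus strand. The Acta2 promoter covers chr19:34255374-34255623 on the minus strand, that of Cyr61 (now named Ccn1) chr3:145649986-145650235 on the minus strand, and that of Ankrd1 chr19:36119845-36120094 on the minus strand. All are written 5′ to 3′ along the gene.
Srf: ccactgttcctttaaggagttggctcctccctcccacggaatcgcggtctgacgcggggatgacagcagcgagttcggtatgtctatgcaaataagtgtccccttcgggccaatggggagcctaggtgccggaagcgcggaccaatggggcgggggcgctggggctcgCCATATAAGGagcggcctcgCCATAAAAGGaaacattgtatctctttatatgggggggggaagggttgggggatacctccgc
Myl9: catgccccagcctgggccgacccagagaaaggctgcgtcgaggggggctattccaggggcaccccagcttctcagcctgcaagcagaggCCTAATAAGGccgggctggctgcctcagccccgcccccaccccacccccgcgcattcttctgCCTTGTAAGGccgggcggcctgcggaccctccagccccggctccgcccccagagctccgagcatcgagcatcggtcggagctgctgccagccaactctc
Vcl: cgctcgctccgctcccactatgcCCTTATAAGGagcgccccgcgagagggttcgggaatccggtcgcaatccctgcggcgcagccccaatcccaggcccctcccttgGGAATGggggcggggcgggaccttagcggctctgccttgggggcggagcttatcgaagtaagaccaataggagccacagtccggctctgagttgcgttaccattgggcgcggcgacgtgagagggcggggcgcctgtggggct
Acta2: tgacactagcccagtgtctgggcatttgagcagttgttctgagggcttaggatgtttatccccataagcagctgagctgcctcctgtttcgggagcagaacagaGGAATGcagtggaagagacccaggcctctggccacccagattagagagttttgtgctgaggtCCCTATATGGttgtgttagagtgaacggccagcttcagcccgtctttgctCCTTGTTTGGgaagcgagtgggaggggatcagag
Cyr61: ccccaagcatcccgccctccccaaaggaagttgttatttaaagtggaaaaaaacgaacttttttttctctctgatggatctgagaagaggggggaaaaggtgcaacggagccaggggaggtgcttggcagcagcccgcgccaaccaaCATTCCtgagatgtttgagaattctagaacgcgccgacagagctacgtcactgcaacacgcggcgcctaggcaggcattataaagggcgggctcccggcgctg
Ankrd1: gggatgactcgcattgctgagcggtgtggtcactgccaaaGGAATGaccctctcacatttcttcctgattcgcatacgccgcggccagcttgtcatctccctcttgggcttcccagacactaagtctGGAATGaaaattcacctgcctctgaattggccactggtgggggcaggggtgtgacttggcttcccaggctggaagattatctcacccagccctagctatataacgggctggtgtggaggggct

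An intact CArG box was found in 3 of the 7 promoters, those of Srf, Myl9 and Vcl, and in 1.47% of the 32851 promoters in the table. Srf itself had 2, with their first bases 82 and 62 bases before the start. Myl9 had 1 at 161 bases and Vcl 1 at 227 bases before the start. The form with 1 C or G occurred in Acta2, at 84 and 34 bases, and in Myl9, at 99 bases, against 7.24% of all promoters. The TEAD motif was present in 4 of the 7 promoters and in 12.6% of all promoters. It lay 103 bases before the start of Cyr61, 143 bases before that of Vcl and 146 bases before that of Acta2, and Ankrd1 had 2, at 210 and 123 bases. The promoter of Cnn1 (chr9:22099003-22099252, plus strand) held none of these letters in this window. A match describes sequence, and binding was not measured.

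The first question was which of the 10 genes were detected. Background was set by 1032 genes for olfactory receptors, which are largely restricted to the nose. A gene was counted as detected, or above background, if its mean over the arrays exceeded a log2 intensity of 7.47, the 95th percentile of the receptors. By this rule 6 of the 10 genes were above background (Srf, Acta2, Myl9, Vcl, Ctgf and Thbs1) and 4 were below it (Tagln, Cnn1, Cyr61 and Ankrd1). Among all genes 65.2% were above background, so the share of these genes was close to that of all genes. The same 6 genes exceeded the receptors' own 95th percentile on each of the 6 arrays, as did 62% of all genes. The median log2 level of the 10 genes was 8.12, against 8.26 over all genes. With background at the 99th percentile of the receptors Acta2 and Myl9 also fell below it and 4 genes stayed above, whereas at the 90th percentile 9 genes were above and only Ankrd1 was not.

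**Figure D1:**
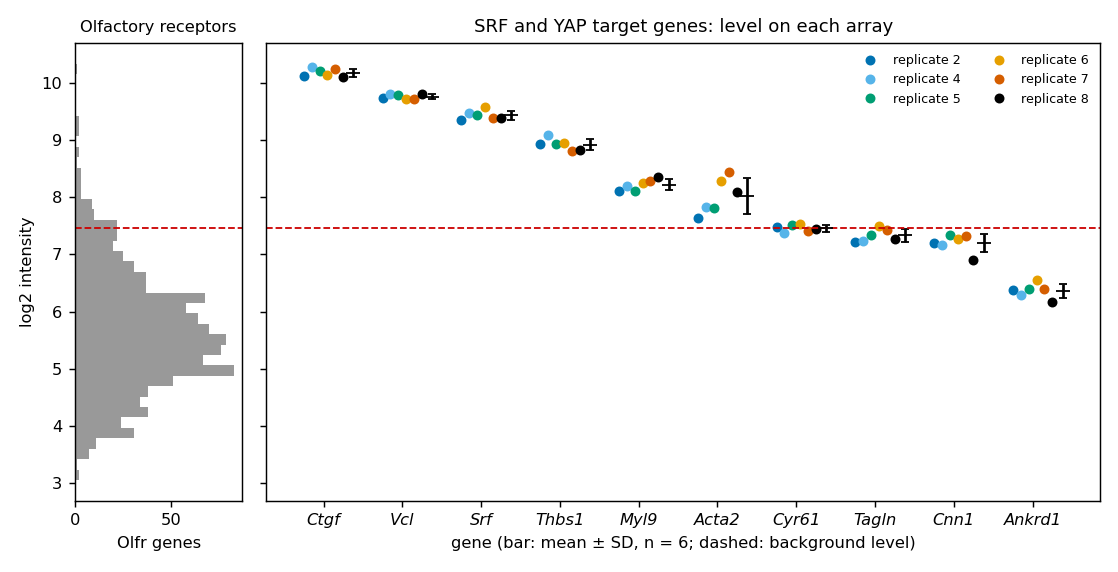
The left panel shows the number of olfactory receptor genes at each mean log2 intensity, and the right panel shows the log2 intensity of each of the 10 genes on the 6 arrays (points) with its mean and SD (bars, n = 6). Ctgf, Vcl, Srf, Thbs1, Myl9 and Acta2 lie above the dashed background level of 7.47 on every array, and Cyr61 lies on it.

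Intensities depend on the probes of each gene, so the order of levels is an order of array signal and not of transcript amounts. From highest to lowest the order was Ctgf, Vcl, Srf, Thbs1, Myl9, Acta2, Cyr61, Tagln, Cnn1 and Ankrd1. Of the 9 neighbouring pairs in this order, 6 did not overlap on any array. The ranges of 3 pairs overlapped: Myl9 with Acta2, Cyr61 with Tagln, and Tagln with Cnn1. Because the embryoid bodies were measured whole, fewer cells of a type and less RNA per cell cannot be told apart.

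Srf, the transcription factor common to the contractile genes, had log2 intensities from 9.35 to 9.58 with a median of 9.41. Its mean of 9.44 ± 0.081 (SD, n = 6) was higher than 74.3% of all genes and 3.91-fold over background. Replicate 6 gave the highest value and replicate 2 the lowest. The SD exceeded that of 62.5% of the 200 genes above background that were nearest in level, and fell to 0.049 without replicate 6.

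The contractile genes of smooth muscle were at or under the middle of the range of all genes. Acta2 encodes smooth muscle alpha-actin, which is also made by activated fibroblasts. Its log2 intensity was 7.65 in replicate 2, 7.83 in replicate 4, 7.81 in replicate 5, 8.29 in replicate 6, 8.45 in replicate 7 and 8.10 in replicate 8. Replicate 7 was the highest and replicate 2 the lowest, and the highest array had 1.75 times the intensity of the lowest. The mean was 8.02 ± 0.31 (SD, n = 6), higher than 45.6% of all genes. Acta2 was the most variable of the 10 genes, with an SD larger than in 99.5% of the 200 genes nearest in level, whose median SD was 0.099. Since actin genes are near-identical in sequence and the methods describe no step to tell their probes apart, the value is uncertain, and how far other actins add to it was not tested.

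Myl9 encodes the regulatory light chain of smooth muscle and non-muscle myosin II. Its log2 intensity ranged from 8.11 in replicate 2 to 8.36 in replicate 8 with a median of 8.22, and the mean was 8.22 ± 0.097 (SD, n = 6). Acta2 was lowest in the same replicate. The spread was ordinary for the level of the gene, with 58% of the nearest genes less variable. Myl9 has close relatives whose transcripts are nearly the same, and its values carry the same uncertainty as those of Acta2.

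Tagln and Cnn1 encode transgelin and calponin, actin-binding proteins that are widely used as markers of smooth muscle. Tagln ranged from 7.23 to 7.49 with a median of 7.30 and a mean of 7.33 ± 0.11 (SD, n = 6), and 93% of the olfactory receptors were lower. Cnn1 ranged from 6.89 to 7.34 with a median of 7.24 and a mean of 7.20 ± 0.16 (SD, n = 6), and 92% of the receptors were lower. On none of the 6 arrays did either gene pass the 95th percentile of the receptors on that same array. The lowest array for Cnn1 was replicate 8, and without it the SD was 0.076. Replicate 8 also had the lowest median level of the olfactory receptors, at 5.44, while the other arrays were at 5.49 to 5.61. The part of this shift in the low value of Cnn1 was not tested.

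Vcl encodes vinculin, which links integrin adhesions and cadherin junctions to actin filaments in most cell types. Its log2 intensity ranged from 9.71 to 9.81 with a median of 9.77. With a mean of 9.76 ± 0.042 (SD, n = 6), it was higher than 80.3% of all genes and varied least of the 10. The highest array exceeded the lowest by a factor of 1.07. Only 14.5% of the genes nearest in level were less variable.

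The classical YAP targets differed widely in signal. Ctgf (Ccn2) encodes a secreted matricellular protein of the CCN family. It ranged from 10.11 to 10.28 with a median of 10.18 and had a mean of 10.18 ± 0.071 (SD, n = 6). Ctgf was thus 6.56-fold over background and higher than 86.6% of all genes, and it had the highest signal of the 10. Cyr61, the closest CCN relative of Ctgf, ranged from 7.37 to 7.53 with a median of 7.46 and a mean of 7.46 ± 0.060 (SD, n = 6). It was above the background of the array itself on 2 of the 6 arrays, and its mean lay just under the background level. Without replicate 4, 6 or 7 Cyr61 moved above background and the count of detected genes became 7. Its SD was small for a gene at this level, with 4.5% of the nearest genes less variable. Ankrd1 encodes a nuclear and sarcomeric protein that is abundant in heart and stretched muscle. It ranged from 6.16 to 6.55 with a median of 6.39 and a mean of 6.36 ± 0.13 (SD, n = 6), and was lower than the background level on every array. Of the olfactory receptors 78.3% were lower than Ankrd1.

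Thbs1 encodes thrombospondin 1, a secreted glycoprotein that activates latent TGF-beta and responds to both pathways. It ranged from 8.81 to 9.09 with a median of 8.93. The mean was 8.92 ± 0.10 (SD, n = 6), which was 2.74-fold over background and higher than 63.7% of all genes. Replicate 4 was the highest array, and the SD was 0.064 without it. In 72% of the genes nearest in level the SD was smaller.

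**Figure D2:**
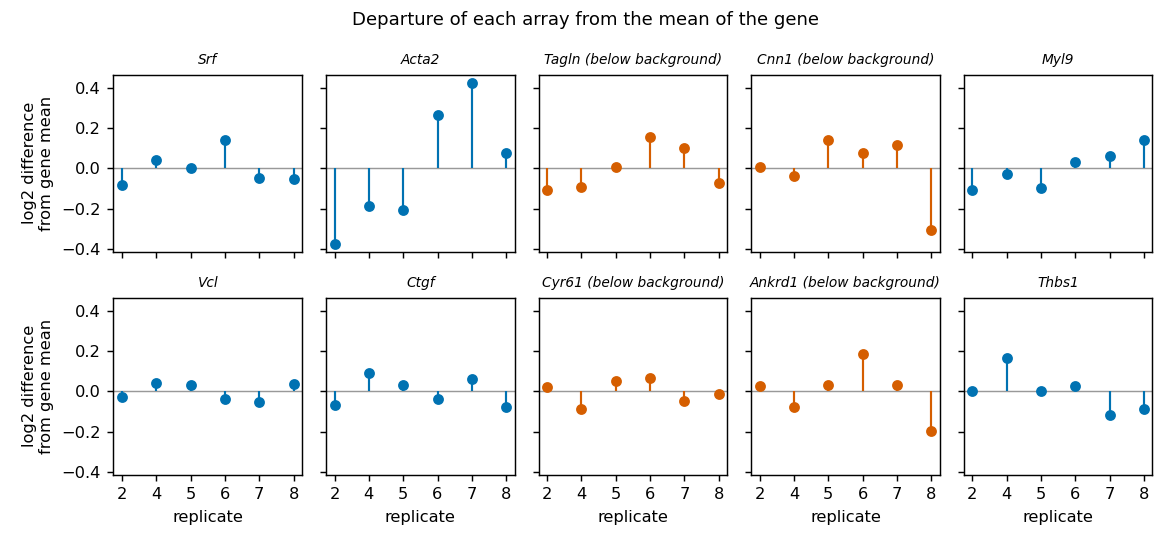
Each panel plots, for 1 gene, the log2 difference of the 6 arrays from the mean of that gene, in blue for genes above background and in orange for genes below it. Acta2 spans the widest range, replicate 8 is low for Cnn1 and Ankrd1, and the arrays are not ordered alike from gene to gene.

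The spread of these genes over the arrays was then set beside that of other genes. The median SD of the 6 genes above background was 0.089, against 0.076 for all genes above background. In 5 of the 6, all but Vcl, the SD was over the median of the genes nearest in level, and Acta2 was farthest above it. By definition about as many genes lie over such a median as under it. Of the 4 genes below background only Cnn1 was over its median, and Tagln, Cyr61 and Ankrd1 were under theirs. Over all 10 genes the median SD was 0.098, the same as over all genes. Of the 10 genes 4 were highest in replicate 6, 4 were lowest in replicate 2 and 3 were lowest in replicate 8. The share of all genes at their highest or lowest on each array was not computed. These counts are therefore not read as a trait of the 10 genes. Replicate 8 stood slightly apart from the rest over all genes, with a mean Pearson's r of 0.992 with the other arrays, while the others had values from 0.994 to 0.995. Each of these r is computed across genes, and genes do not replicate each other. The labels name no batch of arrays or cultures within which values could be taken.

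**Figure D3:**
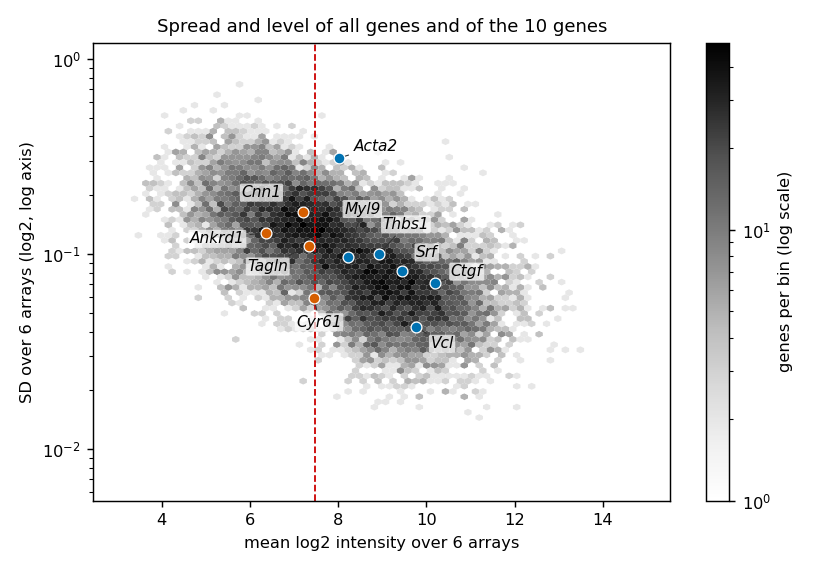
The SD over 6 arrays (log axis) is plotted against mean log2 intensity for all genes (grey bins, shaded by the number of genes) and for the 10 genes (blue above and orange below the dashed background level). Acta2 lies at the upper edge of the genes at its level, and Vcl and Cyr61 lie at the lower side.

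The next question was whether the genes moved together from array to array. Pearson's r was computed over the 6 arrays for all 45 pairs, and each r was tested by an exact two-sided permutation test over the 720 pairings of the arrays. In none of the 45 pairs was the exact p under 0.05. The design allows an exact p of 0.00139 at the smallest. For the 15 pairs of genes above background r ranged from -0.53 to 0.75 with a median of 0.094, and 9 were positive and 6 negative. Over all pairs of genes above background 50% were positive. The median for these genes was not stable, since it was -0.22 without replicate 2, -0.0050 without replicate 4 and -0.13 without replicate 6. Among the 6 pairs of genes below background r was positive throughout, from 0.31 to 0.81, and Cnn1 and Ankrd1 were both lowest in replicate 8. The share of positive r over all pairs of genes below background was not computed. The signs of these 6 pairs are therefore not read as a trait of these genes.

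Acta2 and Myl9 formed the most correlated pair above background. Their r was 0.75 (exact permutation p = 0.1, adjusted p = 0.927 over all genes tested against Acta2) and Spearman's rho was 0.83 (exact p = 0.0583). After leaving out the 2 arrays with the most extreme Acta2 values r was 0.94, and over the arrays left out in turn it ranged from 0.62 without replicate 2 to 0.95 without replicate 8. Acta2 and Tagln had an r of 0.80 (exact p = 0.0667, adjusted p = 0.9999) and a rho of 0.77 (exact p = 0.103). With each array left out in turn this r ranged from 0.73 without replicate 2 to 0.89 without replicate 8. It was 0.18 when the 2 farthest arrays were left out together, so its size depended on that pair of arrays. Cnn1 and Ankrd1, both below background, had an r of 0.81 (exact p = 0.0597, adjusted p = 0.218) and a rho of 0.83 (exact p = 0.0583). Without the 2 farthest arrays their r was 0.62, and with single arrays left out it ranged from 0.46 without replicate 8 to 0.95 without replicate 6. For the relatives Ctgf and Cyr61 r was negative, at -0.58 (exact p = 0.215, adjusted p = 0.995), with a rho of -0.49 (exact p = 0.356) and an r of -0.55 without the 2 farthest arrays. With each array left out in turn this r ranged from -0.77 without replicate 5 to -0.23 without replicate 4.

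**Figure D4:**
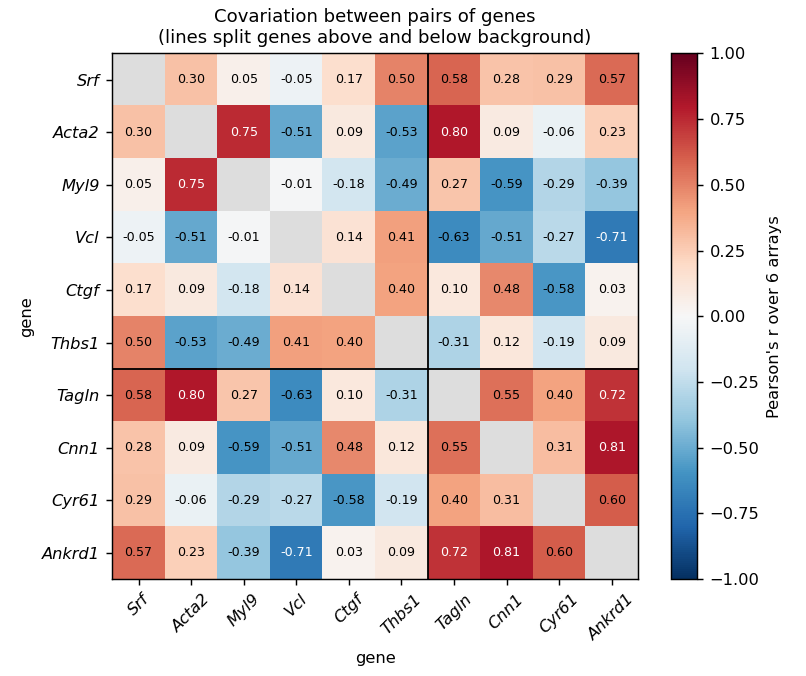
Pearson's r over 6 arrays is shown for each pair of the 10 genes, with black lines between the 6 genes above and the 4 genes below background. Positive and negative values are mixed in the upper left block, from -0.53 to 0.75, and the 6 pairs in the lower right block range from 0.31 to 0.81.

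Each of the 6 detected genes was also tested against all other genes above background. After Benjamini-Hochberg adjustment of the exact permutation p no gene passed 0.05 for any of the 6 (0% of the 12792 tested), and at least 356 genes at the smallest p would have been needed for a call. At an unadjusted exact p under 0.05 the count for Srf was 402 genes (3.14%), for Acta2 647 (5.06%) and for Myl9 874 (6.83%). Vcl had 957 such genes (7.48%), Ctgf 210 (1.64%) and Thbs1 634 (4.96%). None of the counts included another of the 10 genes. The genes share arrays and normalization, so the counts are not independent of each other.

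The genes most like each of the 6 are given as a description, taking only genes with an SD of at least 0.076. They were Ccnb3 (r = 0.98) and 2700023E23Rik (r = 0.97) for Srf, and Ptges3 (r = 0.97) and Sparc (r = 0.96) for Acta2. Sparc encodes a secreted matricellular protein, and its levels followed the order of Acta2 on all 6 arrays. For Myl9 they were Cd2ap (r = 0.99), an adaptor of the actin cytoskeleton, and Myl12b (r = 0.98), a regulatory light chain nearly the same as Myl9, for which shared probe signal is uncertain. For Vcl they were Xpnpep3 (r = 0.99) and Fam13b (r = 0.98). For Ctgf they were Eme2 (r = 0.97) and Krtap5-3 (r = 0.96), and for Thbs1 Sirt1 (r = 0.99) and Slc1a5 (r = 0.98). Like Sparc, the genes Cd2ap, Fam13b, Eme2, Sirt1 and Slc1a5 followed the order of their partner on all 6 arrays. All were picked for a high r, so a like order follows from the choice. None of these relations passed the adjusted test, with adjusted p from 0.569 to 0.9996 by the exact permutation test.

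A further 22 relations joined a gene of the 10 to its relatives or regulators, or Acta2 to collagen genes and decorin. A single one had an exact p under 0.05, a share near the 4.96% of genes above background that had such a p with Thbs1. The relation was that of Thbs1 with Thbs2, with an r of 0.96 (exact p = 0.00972, adjusted p = 0.858). Spearman's rho was 0.83 (exact p = 0.0583), and r was 0.90 without the 2 farthest arrays. Thbs2 had a mean log2 intensity of 9.14 ± 0.30 (SD, n = 6), and was highest in replicate 4, at 9.59, as was Thbs1. For Acta2 with Actb, the main non-muscle actin, r was 0.79 (exact p = 0.0722, adjusted p = 0.925) and rho was 0.66 (exact p = 0.175). Without the 2 farthest arrays this r was 0.81. Srf had an r of 0.32 with Mkl1 and 0.41 with Mkl2, the genes of MRTF-A and MRTF-B, with exact p of 0.551 and 0.421. Ctgf had an r of 0.34 with Yap1 (exact p = 0.481).

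The 10 genes were then set against 3 values that describe each array as a whole, in 30 relations. These were the motor neuron mean (Olig2, Mnx1, Isl1 and Lhx3), the mesenchymal mean (Col1a1, Col1a2, Col3a1 and Dcn) and the median of the olfactory receptors. The study describes the genes of the motor neuron mean as related to motor neurons. Olig2 is counted among neural progenitor markers in the lists used here, so this mean is not a level of motor neurons alone. The mesenchymal genes were the 4 above background among the 9 fibroblast and mesenchyme markers listed, and the 5 below it were left out. A mean over all 9 was not tested against the 10 genes. In either direction, 4.71% of all genes above background had an unadjusted exact p under 0.05 with the motor neuron mean. The share was 20.7% with the mesenchymal mean and 17.8% with the receptor median, and 0% passed after adjustment. For the mesenchymal mean 1701 of these genes had a positive and 943 a negative r, and for the receptor median 1385 and 888. None of the 6 detected genes was among them. Of the genes below background, Cnn1 and Ankrd1 had an unadjusted exact p under 0.05 with the mesenchymal mean, and neither passed the adjustment. The share of all genes below background with such a p was not computed. These relations are therefore not read as a trait of Cnn1 and Ankrd1. For Ankrd1 r was 0.92 (exact p = 0.00139, adjusted p = 0.0994) and rho was 1 (exact p = 0.00278), with an r of 0.57 without the 2 farthest arrays and 0.80 without replicate 8. For Cnn1 r was 0.95 (exact p = 0.00556, adjusted p = 0.108) and rho was 0.83 (exact p = 0.0583), with an r of 0.68 without the 2 farthest arrays and 0.86 without replicate 8. Cnn1 also had an r of 0.87 with the receptor median (exact p = 0.0333, adjusted p = 0.215), a rho of 0.71 (exact p = 0.136), and an r of 0.83 without the 2 farthest arrays and 0.61 without replicate 8. The mesenchymal mean and the receptor median were lowest in replicate 8, and their part in the levels of Cnn1 and Ankrd1 was not tested.

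The other genes of the 2 pathways were examined for whether the machinery around the 10 genes was detected. Of SRF and its cofactors 6 of 7 were above background. Mkl1 was at 9.26 ± 0.036 and Mkl2 at 9.93 ± 0.045, and Elk1, a partner of SRF at immediate early genes, at 10.23 ± 0.085 (SD, n = 6 for these and the values that follow). Myocd, the cofactor specific to heart and smooth muscle, was below background at 7.41 ± 0.14. Of the known MRTF-SRF cytoskeletal targets 23 of 28 were above background. Besides Tagln and Cnn1, the genes below were Actg2, Tpm2 and Lmod1, which are contractile genes of smooth or striated muscle. Other muscle genes of this list were above background, among them the actin genes Acta1 at 8.83 ± 0.15 and Actc1 at 7.59 ± 0.097. Within families the non-muscle members had the higher signal, with Actb at 14.10 ± 0.028 and Actg1 at 13.41 ± 0.019 while Acta2 was at 8.02, and with Cnn3 at 12.14 ± 0.046 and Cnn2 at 9.23 ± 0.082 while Cnn1 was at 7.20. These are signals of different probes, and amounts of transcript were not compared.

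All 17 genes of the Hippo kinases, YAP, TAZ and TEAD were above background. Yap1 was at 9.67 ± 0.019 and varied less than any of the 10 genes, Wwtr1, which encodes TAZ, was at 9.74 ± 0.12, and Tead1 was at 11.11 ± 0.041. Of the known YAP-TEAD targets 15 of 20 were above background. Crim1, at 10.93 ± 0.032, and Asap1, at 11.10 ± 0.057, were higher than Ctgf. Nt5e, Foxf2 and Myof were below background together with Cyr61 and Ankrd1. In the CCN family 4 of 6 genes were detected. Ctgf had the highest signal of the 6, followed by Wisp2 (Ccn5) at 8.74 ± 0.13. Of the thrombospondins 4 of 5 were detected, and Comp was not.

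The RhoA pathway, which joins both programs, had 13 of 14 genes above background, with Rhoa itself at 13.00 ± 0.025. The exception was Mylk, the kinase of the smooth muscle myosin light chain, at 7.35 ± 0.16. All 8 matched focal adhesion partners of vinculin were detected, among them Itgb1 at 10.56 ± 0.073. For comparison, 65.2% of all genes were above background.

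**Figure D5:**
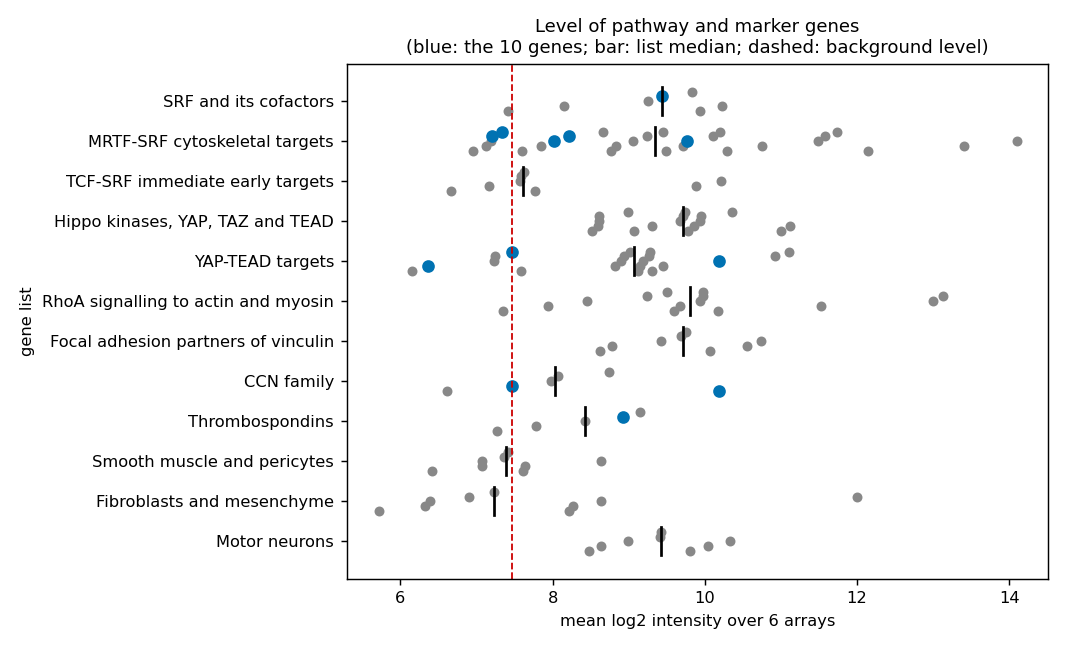
Each point is the mean log2 intensity over 6 arrays of 1 gene of the pathway and marker lists, with the 10 genes in blue, black bars at the list medians and a dashed line at the background level. All genes of the Hippo and focal adhesion lists lie above background, while 5 of the 8 smooth muscle and pericyte markers and 5 of the 9 fibroblast and mesenchyme markers lie below it.

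Markers of the cells that could carry these genes were examined last. All 8 motor neuron markers and all 7 matched neuronal markers were above background, with Tubb3 at 12.81 ± 0.076 and Chat at 9.42 ± 0.097. Of the smooth muscle and pericyte markers 3 of 8 were above background, namely Smtn at 8.64 ± 0.079, Des at 7.63 ± 0.17 and Cspg4 at 7.61 ± 0.15. The other 5, Myh11 (7.36 ± 0.16), Myocd, Synpo2, Pdgfrb and Rgs5, were below it, and the mean of the list ranged from 7.17 in replicate 8 to 7.53 in replicate 6. The order of the arrays differed from that of Acta2, which was lowest in replicate 2, where the list was at 7.34. In replicate 8 Acta2 was at 8.10. The means of every other marker list except those of motor neurons and neurons were also lowest in replicate 8, as was the receptor median. The motor neuron and neuron lists were highest there. A low value of the smooth muscle list in replicate 8 was thus not particular to it, and the part of array signal in it was not tested. Of the fibroblast and mesenchyme markers 4 of 9 were above background, with Dcn at 12.01 ± 0.058, and the mean of the list ranged from 7.59 to 7.87. Markers of heart and skeletal muscle were above background in 3 of 7 genes, and those of endothelium in 2 of 6. The part of any of these cells in the levels of the 10 genes was not tested.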

How the data were processed

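Embryoid bodies of 1 group were measured on 6 Affymetrix mouse exon arrays. The deposited values are linear intensities, 1 per gene and array. According to the methods, the authors applied Robust Multi-array Averaging (RMA) in Aroma Affymetrix and averaged the exons of each gene, while the submitters' processing notes also name Affymetrix Expression Console. Which arrays were normalized together and the genome build are not given in the sources used here. The authors' screen for outlying arrays may have preceded deposition, in which case the spread describes a screened set, and it holds any differences between sera. Columns from other samples numbered 0.

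A log2 transform without a pseudocount was applied to the intensities. Background was the 95th percentile of the means of 1032 olfactory receptor genes. Spread is the SD over arrays, set beside that of the 200 genes nearest in level. These came from the genes above background, or from all genes for a gene below background. Covariation was tested by the exact two-sided permutation test of Pearson's r over 720 pairings, with Benjamini-Hochberg adjustment over all genes above background, or over all genes for a pair with a gene below it. The test was checked on simulated data. Precision is limited by the number of arrays. Python 3.11.15, numpy 2.4.6, pandas 2.3.3, scipy 1.17.1 and matplotlib 3.10.9 were used.

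Named genes were the 10 genes, genes of the pathway and marker lists, and for each of the 6 genes above background the 2 genes with the highest r among those with an SD of at least the median. The 10 genes and the lists were chosen with earlier results of these data known. List genes not matched by symbol, among them Tagln2, Ilk, Syt1 and Myh6, were not analysed here. Lists of neural progenitors, endoderm and epithelium, and blood had 5 of 6, 5 of 8 and 3 of 6 genes above background. Alternatives were the 99th and 90th percentiles for background, median centring, quantile normalization, a pseudocount of 32, Spearman's rho, no filter on low values, and leaving out each array in turn.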

Additional observations from a re-analysis of the deposited data

Results flagged for a closer look

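A value set of 6 arrays was singled out when the gap between an extreme array and its nearest neighbour, divided by the whole range, exceeded Dixon's 95% critical value. Of 113 sets screened 8 were singled out, and chance alone selects about 1 in 20, or 5.65. None of the 10 genes was among them. In the Hippo pathway, Wwtr1 was low in replicate 8, at 9.51 against 9.71 to 9.82 on the other arrays (gap ratio 0.649). The YAP target Axl was low in replicate 8, at 8.74 against 8.91 to 8.97 (gap ratio 0.742). Wisp3 (Ccn6), a CCN relative of Ctgf that was below background, was low in replicate 8, at 6.23 against 6.59 to 6.74 (gap ratio 0.693). Thbs3, a relative of Thbs1, was high in replicate 8, at 8.49 against 8.39 to 8.42 (gap ratio 0.656). The pericyte marker Cspg4 was low in replicate 8, at 7.31 against 7.61 to 7.73 (gap ratio 0.71). The mesenchymal marker Pdgfra, below background, was high in replicate 5, at 6.58 against 6.31 to 6.39 (gap ratio 0.680). The mean of the endoderm and epithelium markers was low in replicate 8, at 7.54 against 7.69 to 7.78 (gap ratio 0.654). The mean correlation of replicate 8 with the other arrays, 0.992 against 0.994 to 0.995, had a gap ratio of 0.661.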

How the results depend on the processing

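The median pairwise r of the genes above background ranged from -0.22 to 0.23 when each array was left out in turn, with negative values without replicate 2, 4 or 6. Under the other settings it ranged from 0.086 with Spearman's rho to 0.28 with background at the 99th percentile. The number of the 10 genes above background was 4 at the 99th percentile, 9 at the 90th, 7 without replicate 4, 6 or 7, and 6 otherwise. Their median SD ranged from 0.064 to 0.092 when an array was left out. The count of genes covarying with any of the 6 genes or 3 whole-array values was 0 after adjustment of the exact permutation p under every setting, while the unadjusted counts varied, for Vcl from 331 to 2415 and for Ctgf from 88 to 427. With 5 arrays the smallest exact p was 0.00833. A level was counted as moved if it changed by at least the SD of its gene over the arrays. An SD was judged by its ratio to the SD under the main setting. Of 180 levels and SDs of single genes under alternative settings 11 moved. Of these 6 were levels raised by the pseudocount of 32, and 5 were SDs, among them that of Cnn1, which was 0.075 with quantile normalization and 0.076 without replicate 8, and that of Ankrd1, which was 0.069 with quantile normalization. No paired analysis was possible because the labels give a single group. The number of arrays limits what could be detected.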

Other observations

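The immediate early genes that SRF controls with Elk factors were also examined, and the spread is given without a test. Of 8 such genes 6 were above background, at a median level of 7.70, while 65.2% of all genes were above it. The count is thus not read as a trait of these genes. In 5 of the 6 the SD was over the median of the 200 genes nearest in level. By definition about as many genes lie over such a median as under it. Ier2, at 7.57 ± 0.28 (SD, n = 6), had a larger SD than 98.5% of those genes, and Junb, at 7.77 ± 0.23, than 95.5%. Egr1, a zinc finger factor induced by serum, was at 10.21 ± 0.20 and highest in replicate 4, at 10.53, with an SD larger than in 99% of the genes nearest in level. Fos, at 7.16 ± 0.11, and Egr3, at 6.67 ± 0.15, were below background.

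Some marker lists held genes far from the rest of their list. Dcn was at 12.01 ± 0.058, while the fibroblast genes Lum and Postn were below background at 5.71 ± 0.19 and 6.33 ± 0.068. Nkx2-5, known as a factor of heart progenitors, was at 9.51 ± 0.067, while the cardiac myosin gene Myh7 was below background at 7.38 ± 0.20.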
